A study of Mus musculus with 9 samples.

Results

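The genes described here encode the machinery that removes the poly(A) tail of an mRNA, takes off its cap and degrades its body. They are 40 named genes: subunits of the CCR4-NOT and PAN2-PAN3 deadenylases, PARN, decapping and LSM proteins, the exonucleases XRN1 and XRN2, the RNA exosome and UPF1. They were chosen by name, from their place in the pathway, with earlier results of these data known; the rule itself uses no measured value. Of the 40, 38 had a probe set assigned to that gene alone, among 18193 genes with such a probe set, and each was read from its probe set with the highest mean. Cnot1, the scaffold of the CCR4-NOT complex, and Lsm5 had only probe sets that the platform annotation shares with another gene (2 and 1), so neither was analysed here. All 38 others passed the filter on low values, a log2 intensity over 4 in at least 4 arrays, as did 10172 genes in all.

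The samples were 9 mouse lymphomas on a strain background that is 94% C57BL/6, each hybridised to 1 Affymetrix array. All 9 carried the Eμ-Myc transgene, in which the immunoglobulin heavy chain enhancer drives Myc in B cells. A group of 4 had no other transgene (Eμ-Myc), and a group of 5 also carried Eμ-TTP-1 (double-transgenic), a transgene for tristetraprolin (TTP, gene Zfp36). The labels call them biological replicates and give no age or sex. Founder lines are not stated, and p-values measure the spread between these samples. The values are GCRMA intensities, given here as log2, and every difference is double-transgenic minus Eμ-Myc.

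TTP binds AU-rich elements of mRNAs and brings in the CCR4-NOT complex, whose CCR4-type and CAF1-type nucleases shorten the poly(A) tail. PAN2 with PAN3, and PARN, are further deadenylases. A deadenylated mRNA is bound at its 3′ end by PATL1 and the ring of LSM1 to LSM7, is decapped by DCP2 with DCP1, EDC3, EDC4 and DDX6, and is then degraded from the 5′ end by XRN1; alternatively the exosome degrades it from the 3′ end. The comparison asks whether tumours that formed with the TTP transgene differ in the mRNA levels of this machinery.

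The promoters of 32 of the 40 genes were in the RefSeq table (build GRCm38.p6), which holds 250 bases before to 50 after a start site. Those of Cnot1, Cnot7, Dcp2, Ddx6, Lsm1, Lsm4, Exosc4 and Exosc9 were not in it. Searches on both strands covered the TATA box (TATAAA), the E-box bound by MYC and MAX (CACGTG), the core bound by ETS factors (CCGGAAG) and the CCAAT box (CCAAT); no one of these contains another. A gene with several start sites was counted where any of its windows held the letters. No window held TATAAA (0 of 32 genes), against 8.49% of the 8331 tested genes with a window. CACGTG was in 3 of 32, or 9.38%, against 12.3% of tested genes, CCGGAAG in 11, or 34.4%, against 22.0%, and CCAAT in 13, or 40.6%, against 43.3%. The median window of the decay genes was 61.8% G and C with 25 CG dinucleotides, against 61.0% and 21 in tested genes. These shares are descriptions and were not tested. Printed here are Dcps, the decapping scavenger with the second largest difference, Exosc8 and Parn, whose levels followed their chromosome in single tumours, and Xrn2, which alone of the 4 holds 2 of the motifs. Letters of a motif are in capitals, and the Exosc8 window holds none. The windows are chr9:35175938-35176237 (minus strand) for Dcps, chr3:54735315-54735614 (minus) for Exosc8, chr16:13668121-13668420 (minus) for Parn and chr2:147012749-147013048 (plus) for Xrn2, each 5′ to 3′ on its gene's strand.
Dcps: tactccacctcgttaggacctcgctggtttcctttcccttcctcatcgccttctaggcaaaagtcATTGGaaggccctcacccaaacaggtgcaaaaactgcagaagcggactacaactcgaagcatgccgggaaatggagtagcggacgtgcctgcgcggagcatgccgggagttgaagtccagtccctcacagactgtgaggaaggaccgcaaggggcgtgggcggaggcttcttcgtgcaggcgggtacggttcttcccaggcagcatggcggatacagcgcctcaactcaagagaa
Exosc8: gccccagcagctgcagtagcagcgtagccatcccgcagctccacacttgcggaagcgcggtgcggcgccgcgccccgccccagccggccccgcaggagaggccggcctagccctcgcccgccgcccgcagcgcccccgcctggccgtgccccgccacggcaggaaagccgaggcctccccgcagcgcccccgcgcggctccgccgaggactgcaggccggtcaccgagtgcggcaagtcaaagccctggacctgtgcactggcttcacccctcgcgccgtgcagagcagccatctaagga
Parn: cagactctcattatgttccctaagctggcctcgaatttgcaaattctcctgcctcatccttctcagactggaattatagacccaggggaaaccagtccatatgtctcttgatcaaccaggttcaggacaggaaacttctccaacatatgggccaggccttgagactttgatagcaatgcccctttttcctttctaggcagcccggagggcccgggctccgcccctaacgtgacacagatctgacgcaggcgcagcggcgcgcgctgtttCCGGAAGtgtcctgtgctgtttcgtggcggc
Xrn2: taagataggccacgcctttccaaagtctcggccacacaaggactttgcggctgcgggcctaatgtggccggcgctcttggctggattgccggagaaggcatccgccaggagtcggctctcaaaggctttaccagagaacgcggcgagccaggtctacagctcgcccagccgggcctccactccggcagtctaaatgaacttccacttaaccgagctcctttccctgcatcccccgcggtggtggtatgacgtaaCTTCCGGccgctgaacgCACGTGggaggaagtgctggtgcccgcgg

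Across the 9 tumours the median intensity of an array, on the linear scale before log2, lay between 12.2 and 13.4. In each, 45037 probe sets were measured. B cell markers were high in every tumour, with a mean log2 over 5 genes between 11.99 and 13.20 without the TTP transgene and between 11.20 and 12.65 with it. Of 5 T cell markers with a probe set 3 passed the filter, and only Cd3e was never over 4. The mean log2 of the 5 spanned 3.61 to 5.44 without and 2.77 to 4.68 with the TTP transgene. The filter was passed by 0 of 4 erythroid markers with a probe set. Of 8 granulocyte genes 7 passed it, and their mean spanned 4.72 to 9.003 without and 3.71 to 9.84 with the TTP transgene. A lymphoma sample mixes cell types, so a lower value cannot be told apart as fewer tumour cells or less RNA of the gene per cell. Of the genes carried by the transgenes, Myc read 13.92 ± 0.26 (SD, n = 4) and 14.02 ± 0.15 (SD, n = 5). Zfp36 read 10.57 ± 0.41 and 10.55 ± 0.38, a log2 difference of -0.02 (SE 0.25). Neither differed by more than its spread, so the arrays showed no higher Zfp36 mRNA in tumours with the TTP transgene. Whether the Zfp36 probe set reads the transgene was not analysed here, which limits the genotype comparison.

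No decay gene differed between tumours with and without the TTP transgene by more than the spread of the arrays allows a call. None of the 38 genes passed limma's test at a Benjamini-Hochberg adjusted p under 0.05 (0 of 10172 genes over the whole array, or 0%), and their lowest limma adjusted p was 0.845. Only Exosc4 had an unadjusted p under 0.05, 1 of 38 or 2.63% of them, where 3.87% of all tested genes were below that limit and higher; 0 of the 38 were below it and lower, against 1.80%. The values of the groups overlapped for all 38 genes, while 1.18% of all tested genes lay entirely higher in double-transgenic tumours and 0.462% entirely lower. Of the 38, 26 had a higher mean in double-transgenic tumours and 12 a lower one, a share of 68.4% against 58.9% of all tested genes, with a median log2 difference of 0.11 against 0.05. After median centring of the arrays the split was 21 and 17, or 55.3%, against 45.8% of all genes.

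On the probe set with the highest mean, the differences were small. The 38 log2 differences ran from -0.23 (Dcp2) to 0.49 (Exosc4), so none exceeded 0.5 in size, as 17.1% of all tested genes and 13.3% of the 7407 genes in the same range of mean levels did. The 95% interval of every one of the 38 lay within a 2-fold change in either direction, the widest bounds being 0.602-fold (Cnot2) and 1.93-fold (Exosc4). For 25 of the 38 it lay within 1.5-fold. Of all 77 probe sets of these genes past the filter, 1 lay outside these limits, a probe set of Ddx6 with a log2 difference of -0.73 (95% interval -1.05 to -0.41). The genes also varied little from tumour to tumour. Their median SD over the 9 arrays was 0.24, against 0.36 for all tested genes and 0.33 for genes in the same range of levels. Of the 38, 36 had an SD below the median of all tested genes, and 33 below that of genes in the same range of levels.

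**Figure D1:**
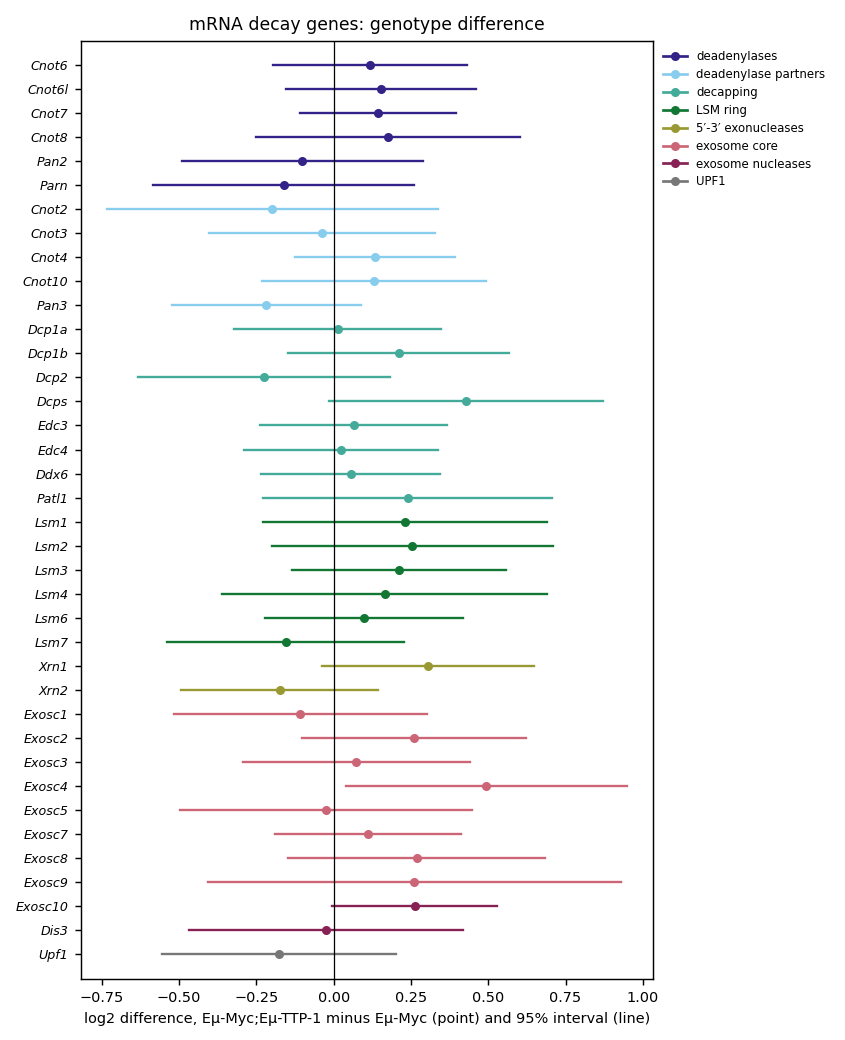
Log2 difference between double-transgenic and Eμ-Myc lymphomas (horizontal axis, points) with its 95% interval from limma (lines) for each of 38 decay genes (rows), coloured by role. The points lie between -0.23 and 0.49, and 26 of them lie to the right of 0.

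The catalytic subunits of CCR4-NOT had slightly higher means in double-transgenic tumours, each within the spread of the arrays. Cnot6 and Cnot6l encode the CCR4-type nucleases, and Cnot7 and Cnot8 the CAF1-type nucleases. Their log2 differences were 0.12 (95% interval -0.20 to 0.43), 0.15 (-0.15 to 0.46), 0.14 (-0.11 to 0.40) and 0.18 (-0.25 to 0.60). All 13 probe sets of these 4 genes that passed the filter had a difference above 0, from 0.10 to 0.37. Of all 18464 probe sets past the filter, 58.2% had a difference above 0, and the median over all tested genes was 0.05. Probe sets of a gene share its arrays and are not separate evidence. Cnot8 was more variable, with both its extremes, 9.75 and 10.54, among the Eμ-Myc tumours (replicates 2 and 1).

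Another probe set of Cnot6 separated the groups. It read 11.52, 11.86, 11.59 and 11.66 in Eμ-Myc replicates 1 to 4 and 12.04, 11.91, 11.91, 11.91 and 11.94 in double-transgenic replicates 1 to 5. Every double-transgenic value lay above every Eμ-Myc value, with the nearest pair 11.86 and 11.91. Its log2 difference was 0.28 (SE 0.11, limma adjusted p = 0.812 over 18464 probe sets, exact permutation p = 0.00794, two-sided, the smallest that 4 against 5 arrays allow). The probe set with the highest mean overlapped between the groups, with 12.65 in double-transgenic replicate 1 and 13.26 in replicate 2. Cnot7 had a similar case in 1 of its probe sets, at 8.06, 8.04, 7.93 and 8.12 in Eμ-Myc and 8.33, 8.49, 8.53, 8.63 and 8.05 in double-transgenic tumours. Here replicate 5 alone of the double-transgenic tumours lay among the Eμ-Myc values (log2 difference 0.37, SE 0.14, limma adjusted p = 0.812).

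Among the other CCR4-NOT subunits no direction was shared. Cnot2, which helps to hold the complex together, read 12.66, 12.39, 11.68 and 12.31 in Eμ-Myc and 11.76, 12.11, 12.41, 12.32 and 11.71 in double-transgenic tumours. It was low in 1 Eμ-Myc and 2 double-transgenic tumours, and the groups overlapped (log2 difference -0.20, SE 0.23, limma adjusted p = 0.925). All 4 of its probe sets that passed the filter had a difference below 0, from -0.24 to -0.17; the one with the highest mean belongs to the class named _x_at, which can hybridise to other transcripts. Cnot3, the partner of CNOT2, had -0.04, Cnot4, a ubiquitin ligase that associates with the complex, 0.14, and Cnot10 0.13. The difference of Cnot10 depended on the probe set, with 2 of its 4 above 0 and 2 below, down to -0.36.

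The PAN2-PAN3 complex and PARN had lower means in double-transgenic tumours, again within the spread. Pan3, which recruits the nuclease PAN2 to poly(A), read 11.20, 10.84, 10.89 and 10.96 in Eμ-Myc and 10.54, 10.63, 10.96, 10.91 and 10.71 in double-transgenic tumours. Of the double-transgenic values 3 lay below every Eμ-Myc value and 2 lay among them, and the log2 difference was -0.22 (SE 0.13, limma adjusted p = 0.860, exact permutation p = 0.119, two-sided). All 3 of its probe sets past the filter were below 0, from -0.30 to -0.14, and without Eμ-Myc replicate 1 its difference was -0.14. Pan2 had -0.10 (95% interval -0.49 to 0.29).

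Parn, a cap-binding poly(A) ribonuclease, stood out in 1 tumour. It read 9.42, 9.64, 9.26 and 10.14 in Eμ-Myc and 9.55, 9.63, 9.31, 9.47 and 9.32 in double-transgenic tumours. Eμ-Myc replicate 4 was higher than all others, and its log2 difference of -0.16 (SE 0.19, limma adjusted p = 0.921) became 0.014 without that array and -0.28 without Eμ-Myc replicate 3. Its probe set with the highest mean is again of the _x_at class, its other probe set gave -0.14, and array weights gave -0.31.

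Of the decapping genes, Dcps had the largest difference. DCPS is the scavenger enzyme that hydrolyses the cap left on the short fragment after 3′ to 5′ decay. It read 10.01, 9.996, 9.47 and 10.27 in Eμ-Myc and 10.18, 10.61, 10.58, 10.43 and 10.03 in double-transgenic tumours. Eμ-Myc replicate 3 was the lowest, 3 double-transgenic values lay above every Eμ-Myc value, and 2 lay among them. The means were 9.94 ± 0.34 (SD, n = 4) and 10.37 ± 0.25 (SD, n = 5), a log2 difference of 0.43 (95% interval -0.02 to 0.87, limma adjusted p = 0.845, exact permutation p = 0.0556, two-sided). Without Eμ-Myc replicate 3 it was 0.27. With the mean of all 3 of its probe sets, of which only 1 passed the filter, it was 0.12.

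The decapping enzyme itself went the other way. Dcp2, its catalytic subunit, read 12.16, 12.27, 12.61 and 12.40 in Eμ-Myc and 12.06, 11.64, 12.27, 12.31 and 12.38 in double-transgenic tumours. It was lowest in double-transgenic replicate 2 and highest in Eμ-Myc replicate 3, and its log2 difference was -0.23 (SE 0.18, limma adjusted p = 0.880). The difference was -0.10 without double-transgenic replicate 2 and -0.14 without Eμ-Myc replicate 3. Its other probe set past the filter gave -0.44 (SE 0.23), the mean of its probe sets -0.33 and median centring -0.30. Its cofactors had smaller differences: Dcp1a had 0.01 and Dcp1b 0.21, and the enhancers of decapping Edc3 and Edc4 had 0.06 and 0.02, all with intervals that include 0. Patl1, the scaffold between the LSM ring and the decapping enzyme, read 8.42, 8.51, 8.22 and 8.33 in Eμ-Myc and 8.76, 8.55, 8.07, 8.51 and 9.15 in double-transgenic tumours. Double-transgenic replicates held both its lowest value (replicate 3) and its highest (replicate 5), and its log2 difference was 0.24 (SE 0.21, limma adjusted p = 0.886).

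Ddx6, the helicase that represses translation and activates decapping, depended on the probe set. Its probe set with the highest mean read 12.75, 12.33, 12.58 and 12.28 in Eμ-Myc and 12.47, 12.49, 12.62, 12.62 and 12.48 in double-transgenic tumours, a log2 difference of 0.06 (SE 0.13). Another of its probe sets read 10.83, 10.75, 10.96 and 10.48 in Eμ-Myc and 9.88, 9.92, 9.94, 10.09 and 10.28 in double-transgenic tumours. On that probe set every double-transgenic value was below every Eμ-Myc value. The means were 10.76 ± 0.21 (SD, n = 4) and 10.02 ± 0.17 (SD, n = 5), a log2 difference of -0.73 (95% interval -1.05 to -0.41, limma adjusted p = 0.812, exact permutation p = 0.00794, two-sided). With each array left out it stayed between -0.83 and -0.66, and no limma adjusted p was below 0.347. The remaining probe set lay between, with -0.29 (SE 0.19). Which part of the transcript each probe set covers was not analysed here, so the difference cannot be assigned to a form of the mRNA, and over the gene the direction is not settled.

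The probe sets of the other genes gave a consistent sign more often. Of 20 genes with more than 1 probe set past the filter, 17 had the same sign in all of them. The exceptions were Cnot10, Ddx6 and Exosc1. The same share over all genes was not computed, so the count does not set these genes apart. In the fit of all probe sets, 5 of the 77 belonging to the decay genes had an unadjusted p under 0.05, beside 6.00% of all 18464, and 0 passed after adjustment. In 2 of the 77 (of Cnot6 and Exosc10) all double-transgenic values lay higher, beside 1.27% of all probe sets, and in 1 (of Ddx6) all lay lower, beside 0.509%. These 3 probe sets were singled out after their values were seen. A lack of overlap by itself puts the exact permutation p at or near the smallest possible, so that p is no separate support.

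**Figure D2:**
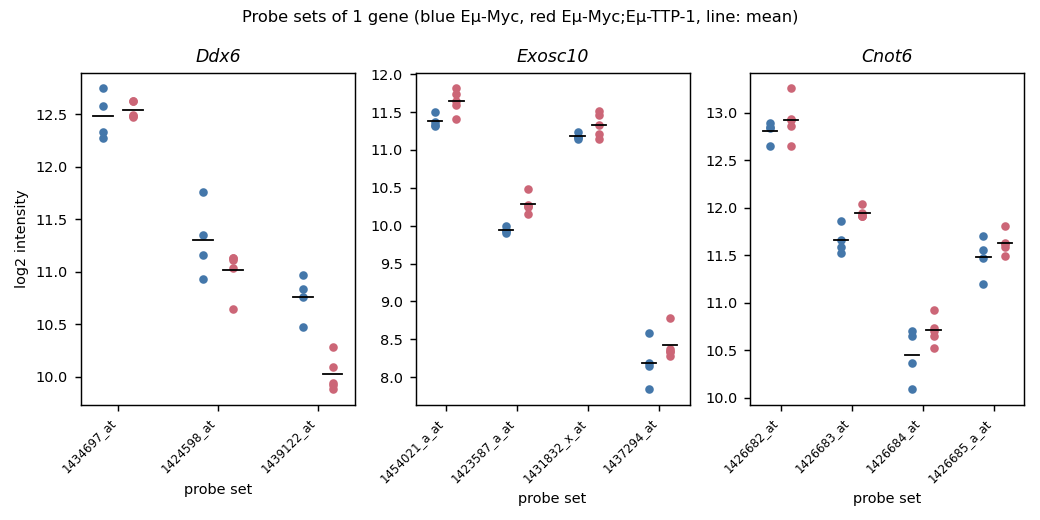
Log2 intensity (vertical axis) of each probe set past the filter for Ddx6, Exosc10 and Cnot6 in every array (points, with the group mean as a line). The groups separate in 1 probe set of each gene, downwards in Ddx6 (10.76 to 10.02) and upwards in Exosc10 (9.95 to 10.28) and Cnot6 (11.66 to 11.94), while the probe sets with the highest mean overlap.

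The LSM proteins form a ring on the 3′ end of deadenylated mRNAs (with LSM1) and, in the nucleus, on U6 RNA (with LSM8). Of the 6 measured, 5 had a higher mean in double-transgenic tumours, with a median log2 difference of 0.19 over the 6, and none passed. Lsm1, which sets the cytoplasmic ring apart, had 0.23 (95% interval -0.23 to 0.69) and was highest in double-transgenic replicate 1 at 11.01, where the other arrays had 9.92 to 10.44. Lsm2 had 0.25, Lsm3 0.21 and Lsm6 0.10. Lsm4 read 11.90, 12.89, 12.02 and 12.72 in Eμ-Myc and 12.58, 12.27, 12.55, 12.82 and 12.53 in double-transgenic tumours. It was thus split within Eμ-Myc, low in replicates 1 and 3 and high in 2 and 4, while the double-transgenic values ran from 12.27 to 12.82, within the Eμ-Myc range (log2 difference 0.16, SE 0.23, limma adjusted p = 0.935). Lsm7, the single member with a lower mean, read 10.83, 10.97, 10.39 and 10.81 in Eμ-Myc and 10.80, 10.25, 10.45, 10.74 and 10.74 in double-transgenic tumours. Each group held low tumours, and its log2 difference was -0.16 (SE 0.17, limma adjusted p = 0.913). It was -0.08 without Eμ-Myc replicate 2, -0.07 without double-transgenic replicate 2 and -0.28 without Eμ-Myc replicate 3.

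The cytoplasmic and nuclear 5′ to 3′ exonucleases differed in sign. Xrn1, which degrades decapped mRNA, read 7.59, 7.48, 7.42 and 7.66 in Eμ-Myc and 8.11, 7.64, 8.10, 7.79 and 7.56 in double-transgenic tumours. Of the latter, 3 lay above every Eμ-Myc value and 2 among them (log2 difference 0.30, SE 0.15, limma adjusted p = 0.859, exact permutation p = 0.0794, two-sided). Its other probe set gave 0.27, and quantile normalisation 0.19. Xrn2, which acts in the nucleus and in transcription termination, read 12.41, 12.09, 12.03 and 12.01 in Eμ-Myc and 12.10, 11.78, 12.03, 12.13 and 11.75 in double-transgenic tumours. Only double-transgenic replicates 2 and 5 lay below the Eμ-Myc range, and the log2 difference was -0.17 (SE 0.14, limma adjusted p = 0.882). It was -0.08 without Eμ-Myc replicate 1, -0.09 with array weights and -0.25 after median centring. The other probe set of Xrn2 past the filter gave -0.34 (SE 0.24). The difference between the 2 genes was not tested.

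Of the exosome genes, Exosc4 had the largest difference of all 38. The exosome core is a ring of EXOSC4 to EXOSC9 capped by EXOSC1 to EXOSC3, has no nuclease activity of its own and threads RNA to DIS3, while EXOSC10 is a nuclease of the nuclear form. Exosc4, a ring subunit, read 9.15, 8.98, 8.52 and 9.31 in Eμ-Myc and 9.74, 9.15, 9.69, 9.57 and 9.26 in double-transgenic tumours. In the double-transgenic group 3 values lay above every Eμ-Myc value and 2 lay among them, and Eμ-Myc replicate 3 was lowest. The means were 8.99 ± 0.34 (SD, n = 4) and 9.48 ± 0.26 (SD, n = 5), a log2 difference of 0.49 or 1.41-fold (95% interval 1.03 to 1.93-fold, limma adjusted p = 0.845, exact permutation p = 0.0556, two-sided). Without Eμ-Myc replicate 3 the log2 difference was 0.34, its other probe sets gave 0.24 and 0.12, and the mean of its probe sets gave 0.29.

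Exosc10 differed less but with less spread. It read 11.51, 11.37, 11.33 and 11.31 in Eμ-Myc and 11.81, 11.65, 11.74, 11.60 and 11.41 in double-transgenic tumours. Only double-transgenic replicate 5 lay within the Eμ-Myc range. The means were 11.38 ± 0.09 (SD, n = 4) and 11.64 ± 0.16 (SD, n = 5), 0.26 apart on the log2 scale (SE 0.12, limma adjusted p = 0.845, exact permutation p = 0.0317, two-sided). All 4 of its probe sets past the filter were above 0, from 0.15 to 0.34. On 1 of them the groups did not overlap, with 9.93, 9.997, 9.95 and 9.90 in Eμ-Myc and 10.49, 10.27, 10.24, 10.28 and 10.15 in double-transgenic tumours. Dis3, the other nuclease, had -0.02 (95% interval -0.47 to 0.42).

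Over the 8 measured core subunits the median log2 difference was 0.19, with 6 higher and 2 lower. Exosc2, a cap subunit that binds RNA, read 10.69, 11.03, 10.68 and 11.03 in Eμ-Myc and 11.46, 11.02, 11.25, 11.02 and 10.84 in double-transgenic tumours. Double-transgenic replicates 1 and 3 lay above the Eμ-Myc range and the other 3 within it (log2 difference 0.26, SE 0.16, limma adjusted p = 0.860). With the mean of its 2 probe sets, of which only 1 passed the filter, the difference was 0.12. Exosc8 read 12.37, 12.22, 11.67 and 12.37 in Eμ-Myc and 12.65, 12.28, 12.33, 12.23 and 12.65 in double-transgenic tumours. Its difference of 0.27 (SE 0.18, limma adjusted p = 0.867) rested much on the low Eμ-Myc replicate 3, without which it was 0.11. Exosc9, the most variable of the 38, read 12.08, 11.37, 10.91 and 11.67 in Eμ-Myc and 12.36, 11.12, 11.67, 11.89 and 11.78 in double-transgenic tumours. Each group spanned more than its difference of 0.26 (SE 0.29, limma adjusted p = 0.918). Exosc1, Exosc3, Exosc5 and Exosc7 had -0.11, 0.07, -0.02 and 0.11.

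Upf1, the helicase of nonsense-mediated decay, read 10.44, 10.56, 10.15 and 10.31 in Eμ-Myc and 10.47, 9.75, 10.34, 10.24 and 10.13 in double-transgenic tumours. It was lowest in double-transgenic replicate 2, and its log2 difference was -0.18 (SE 0.17, limma adjusted p = 0.899), or -0.07 without that array and -0.11 without Eμ-Myc replicate 2.

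In 1 tumour, Eμ-Myc replicate 3, most of the decay genes were low. In Eμ-Myc replicate 3 the 38 genes lay at a median of 0.28 below their own medians over the 9 arrays (-0.28 on the log2 scale), and 33 of the 38 were below. It held the lowest value of 16 genes, or 42.1%, while it held the lowest value of 16.9% of all tested genes. The medians in that array were -0.44 for the exosome core, -0.37 for the LSM ring, -0.32 for the scaffold subunits of the deadenylases, -0.29 for decapping genes and -0.21 for the deadenylases. Double-transgenic replicate 2 followed with a median of -0.11 and the lowest value of 8 genes, or 21.1%, beside 16.3% of all genes. Its medians differed by role, with -0.30 for the exosome nucleases, -0.21 for the LSM ring, -0.20 for the scaffold subunits and -0.08 for the exosome core, but 0.0023 for decapping genes and 0.105 for the deadenylases. Double-transgenic replicate 1 held the highest value of 11 genes, or 28.9% (9.19% of all genes), with a median of 0.08 over the 38 and of 0.29 over the exosome core. In the other 6 arrays the median lay between -0.01 and 0.06. Without Eμ-Myc replicate 3 the genotype difference had a median of 0.06, with 22 genes higher and 16 lower.

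**Figure D3:**
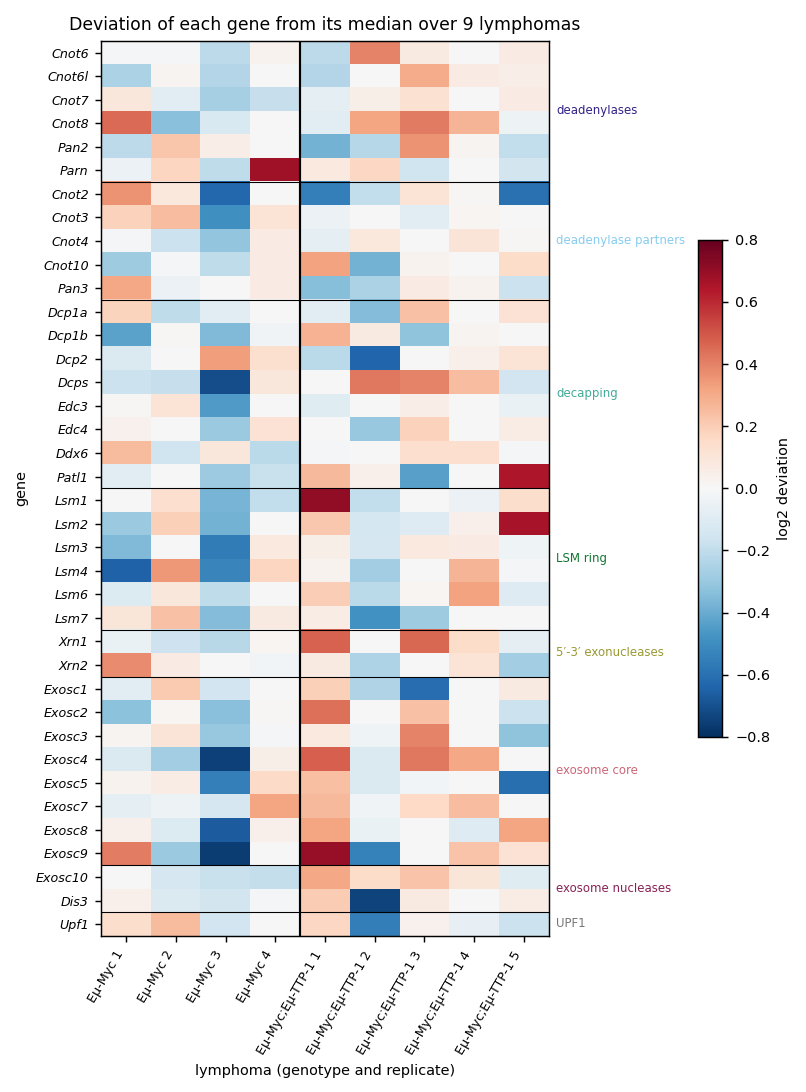
Log2 deviation of each of 38 decay genes (rows, grouped by role) from its own median over the 9 lymphomas (columns, Eμ-Myc left of the black line); red is higher and blue lower. Eμ-Myc replicate 3 is blue for 33 of the 38 genes.

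The 2 arrays with the lowest decay gene medians also had the highest granulocyte markers. The 8 granulocyte markers had a mean log2 of 9.003 in the first of these (Eμ-Myc replicate 3) and 9.84 in the other (double-transgenic replicate 2), against 4.72, 8.36 and 7.94 in Eμ-Myc replicates 1, 2 and 4 and 4.48, 3.71, 5.28 and 3.94 in double-transgenic replicates 1, 3, 4 and 5. The order is not strict, since Eμ-Myc replicate 2 had 8.36 beside a decay gene median of 0. The B cell markers read 11.99 in Eμ-Myc replicate 3, beside 12.02 and 12.00 in replicates 1 and 4, and were lowest of all in double-transgenic replicate 2 at 11.20. The 7 cycling markers read 13.28 in Eμ-Myc replicate 3 and 12.84 in Eμ-Myc replicate 1, while the remaining 7 arrays, double-transgenic replicate 2 among them, read 13.58 to 13.72. Macrophage markers spanned 9.995 to 11.30 without and 9.05 to 11.12 with the TTP transgene, and stromal and endothelial markers 9.78 to 12.06 and 8.78 to 11.87. The part of these cells in the values of the decay genes was not tested.

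**Figure D4:**
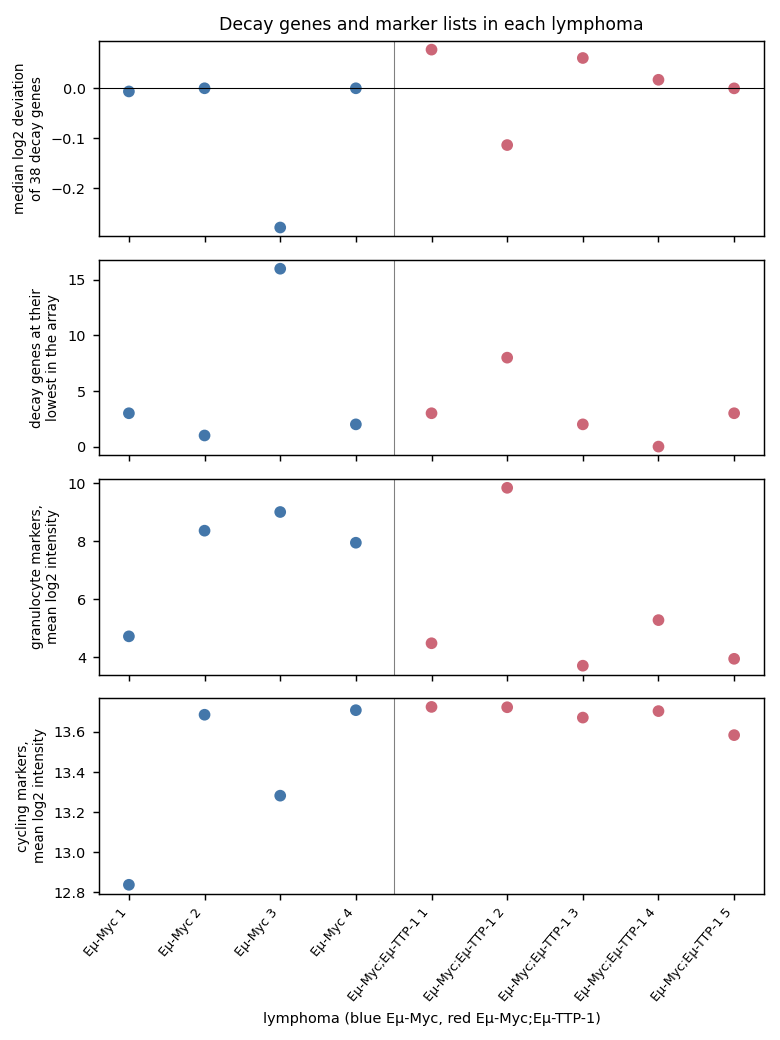
For each of the 9 lymphomas (horizontal axis, blue Eμ-Myc, red double-transgenic) the panels give the median log2 deviation of the 38 decay genes, the number of them with their lowest value in that array, and the mean log2 intensity of the granulocyte and the cycling markers. Eμ-Myc replicate 3 has the lowest median (-0.28) and 16 lowest values, and granulocyte markers are highest in double-transgenic replicate 2 and Eμ-Myc replicate 3 (9.84 and 9.003).

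In single tumours, decay genes mostly deviated on the side of the chromosome on which they lie, as most tested genes there did. For each gene and array the median deviation of the other tested genes of its chromosome was taken. It was 0.15 or more from 0 in 20 of 342 pairs, which involve 10 genes on 7 chromosomes. The limit of 0.15 came from earlier results of these same arrays and was chosen with values known, so these counts are descriptions. In 18 of these 20, or 90.0%, the decay gene deviated in the direction of its chromosome, as did 74.6% of the 5125 values of all tested genes on those chromosomes in those arrays. The median size of the deviation was 0.37 in the 20 pairs and 0.11 in the other 322. The same sizes over all tested genes were not computed.

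Parn deviated by 0.68 in Eμ-Myc replicate 4, where the other 341 tested genes of chromosome 16 had a median of 0.50. Lsm2 deviated by 0.66 in double-transgenic replicate 5, with 0.33 for chromosome 17. On chromosome 19, Patl1 and Exosc1 deviated by -0.44 and -0.61 in double-transgenic replicate 3, where the chromosome stood at -0.47 and -0.46, and by 0.65 and 0.07 in replicate 5, where it stood at 0.33 and 0.34. These pairs hold the highest values of Parn and Lsm2 over the 9 arrays, the lowest of Exosc1, and both the highest and the lowest of Patl1. Exosc8 and Exosc9 are both on chromosome 3, whose median was above 0 in replicate 1 of each genotype and in double-transgenic replicate 5, and below 0 in Eμ-Myc replicates 2 and 3. Both genes lay on its side in all 5 arrays, Exosc9 from -0.76 to 0.70 and Exosc8 from -0.66 to 0.31. Exosc4 on chromosome 15 deviated by 0.42 in double-transgenic replicate 3 (chromosome 0.21), and Dcp2 on chromosome 18 by 0.34 in Eμ-Myc replicate 3 (chromosome 0.32). The exceptions were Dcp1a (-0.09) and Dis3 (-0.14) in Eμ-Myc replicate 3, where chromosome 14 stood at 0.19. When each array was centred by chromosome, the log2 difference of Parn was -0.06 and that of Exosc8 0.16, while Exosc4 kept 0.41 and Dcps 0.40. DNA copy number was not measured in these samples.

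**Figure D5:**
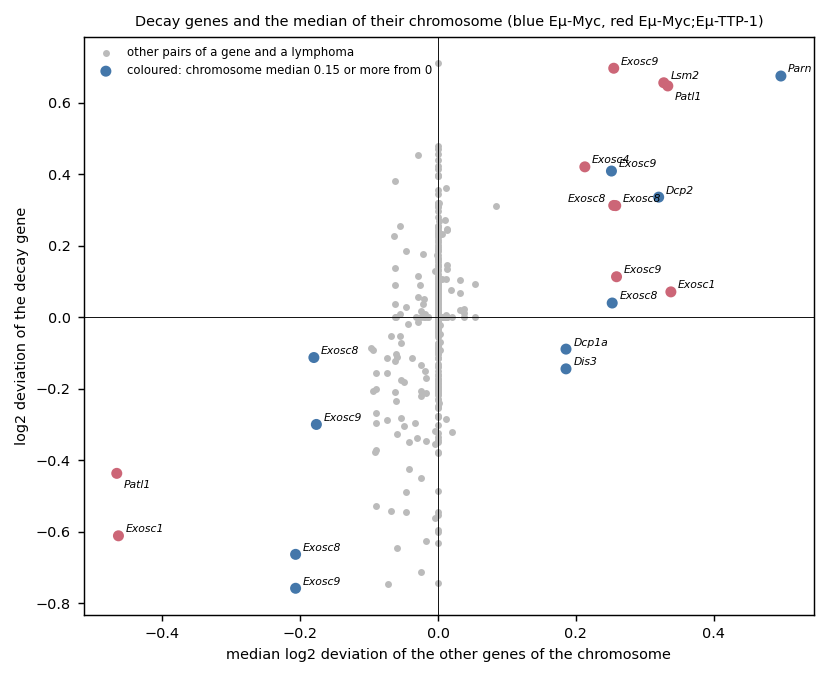
Log2 deviation of a decay gene in a lymphoma (vertical axis) against the median deviation of the other tested genes of its chromosome in the same lymphoma (horizontal axis), for 342 pairs of a gene and an array. Of the 20 coloured pairs, whose chromosome median is 0.15 or more from 0, 18 lie in the upper right or lower left corner.

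The rest of the pathway gave the same picture of small differences. From lists of 80 further decay genes, 69 were tested, of which 39 had a higher and 30 a lower mean, with a median log2 difference of 0.04, and 0 passed limma's test (lowest adjusted p = 0.845). An unadjusted p under 0.05 was found for 2 of the 69, or 2.90%, against 5.67% of all tested genes. Among 17 genes that associate with deadenylases, 7 were higher and 10 lower; Toe1, a deadenylase of small nuclear RNAs, had 0.29 (SE 0.15), and Pabpn1, the nuclear poly(A) binding protein, -0.14 (SE 0.13). Among 12 further decapping and LSM genes, 10 were higher and 2 lower, with Nudt3, a hydrolase that can remove caps, at 0.36 (SE 0.13, limma adjusted p = 0.845) and Lsm11, of the U7 particle, at -0.20 (SE 0.25). The means of Nudt3 were 11.78 ± 0.12 (SD, n = 4) and 12.14 ± 0.19 (SD, n = 5).

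Cofactors of the exosome were divided, 9 higher and 9 lower. Hbs1l, whose gene encodes a ribosome rescue factor and a link between the exosome and the SKI complex, read 10.33 ± 0.28 and 9.91 ± 0.19, which is -0.43 on the log2 scale (SE 0.17, limma adjusted p = 0.845). Tut4, a terminal uridylyl transferase, had 0.21 (SE 0.13). Of 10 genes of nonsense-mediated decay 7 were higher, with Smg8 at 0.24 (SE 0.13) and the kinase gene Smg1 at -0.17 (SE 0.11). Of 12 genes for proteins that bind AU-rich or related elements, Zfp36 included, 6 were higher and 6 lower, from Zfp36l2 at 0.53 (SE 0.28) to Rc3h1, which encodes roquin, at -0.15 (SE 0.14), the genes with the smallest p in each direction. Each of these genes had a limma adjusted p of 0.845 or more.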

How the data were processed

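The authors deposited 1 table of probe set intensity values for the 9 arrays, made with GCRMA per the submitters' processing notes (version not given in the sources used here). Intensities run from 1.56 to 123105, a linear scale, and log2 was taken with no pseudocount. The platform annotation names a single gene for 34945 of the 45037 probe sets. No scan or hybridisation batch is given in the sources used here.

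The genotypes were tested gene by gene in limma 3.58.1 under R 4.3.3 (two-sided, Benjamini-Hochberg over all 10172 tested genes), without covariates, and the script was tested on simulated data. Members and lists were chosen with earlier results of these data known. Values by array are given for the 6 genes of smallest p in each direction, the 6 of largest SD, any over 1 log2 from its median, and any whose probe sets differ in sign with one at p under 0.05; of each further list, the gene of smallest p in each direction is named. Others were chosen after their values were seen. Exact permutation used every arrangement of the 9 arrays. Same-numbered arrays of the groups correlated by -0.09 to 0.20 in their deviations from the group means. Arrays with different numbers were not compared, so this cannot show whether the numbers pair them. The labels name no pairing, and the fit reported used none. Alternatives are listed with their effects in the closing section.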

Additional observations from a re-analysis of the deposited data

Results flagged for a closer look

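A single tumour stood far from its group in 1 of 76 groups of values (38 genes in each genotype), where chance gives about 1 in 20, or 4. Dis3, which encodes the nuclease of the exosome, read 10.82 in double-transgenic replicate 2, while its group's remaining 4 tumours read 11.56 to 11.77.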

How the results depend on the processing

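No decay gene passed limma's adjusted test in any alternative or with any array left out (0 throughout). Over all genes the count was 0 in the alternatives and 0 to 8 with arrays left out, the 8 without Eμ-Myc replicate 3. The number of decay genes at an unadjusted p under 0.05, 1 in the fit reported, was 3 with no filter and 3 with the mean of probe sets, 2 with a trend and robust prior, 2 with array weights, 2 with a pseudocount of 16, 0 after quantile normalisation, 0 after median centring, 0 with the replicate block and 0 after centring by chromosome, which was added after seeing the data, and 0 to 4 with arrays left out. A filter of log2 6, no _x_at probe sets and Xist as a covariate left it at 1. The replicate block left out double-transgenic replicate 5 and changed no adjusted call. Without that array and without the block, 4 decay genes had an unadjusted limma p under 0.05. The median log2 difference of the decay genes was 0.04 to 0.12 in the alternatives and 0.06 to 0.14 with arrays left out, the lowest without Eμ-Myc replicate 3. Of the 12 genes with the smallest p, Parn changed sign, to 0.014 without Eμ-Myc replicate 4 (range -0.28 to 0.014 with arrays left out); the other 11 kept their sign throughout. Cells of other types, the number of arrays and the unknown transcript position of the probe sets limit these values.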
